A study of Rattus norvegicus with 32 samples.

Results

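The constitutive proteasome subunits were examined in rat astrocytes exposed to polystyrene nano- and microplastic particles. Genes were taken by name, as every row of the differential expression tables whose symbol is Psma, Psmb, Psmc or Psmd followed by a digit, apart from the inducible catalytic subunits Psmb8, Psmb9 and Psmb10. The rule took 35 genes of 17825 in the 50 nm table and the same number of 18037 in the 500 nm table, and used no measured value. The 2 listed subunits Psma8 and Psmd7 had no matching row and were not analysed here. The row named Psma3l was counted as the alpha subunit Psma3, of which it is an older symbol in the RefSeq gene table. Psmc3ip, a factor of meiotic recombination, was matched by its letters alone and is not a proteasome subunit.

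RNA-seq was performed on astrocytes that had been differentiated from purchased rat fetal neural stem cells, a cultured cell model rather than astrocytes of the brain. The 50 nm particles were given at 1, 10 and 100 µg/mL for 7 days with a control group that received none, and the 500 nm particles at the same doses with their own control group. All 8 groups held the same differentiated cells and had 4 libraries each, 32 in all. The paper describes no genetic change of the cells and names no rat strain. The methods speak of biological replicates for the in vitro work in general, with a number other than that of the RNA libraries in a group, and do not say whether each library came from a culture of its own. The p-values therefore measure the spread between these libraries, which may be partly technical. In the paper's viability assay, 7 days of 50 nm particles lowered astrocyte viability from 10 µg/mL upward. For 500 nm particles it reports a falling trend at 100 µg/mL. The part of lowered viability in the RNA values was not tested.

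The 26S proteasome is the main machine by which cells break down proteins tagged with ubiquitin. Its 20S core is a barrel of stacked rings, with alpha subunits (Psma) that gate the entrance and beta subunits (Psmb) that line the chamber, 3 of which (Psmb5, Psmb6 and Psmb7) cut the protein chain. The 19S cap holds ATPases (Psmc) that unfold the substrate and non-ATPase subunits (Psmd) that bind it and remove its ubiquitin. In many cells the genes of the complex are raised together by the transcription factor NRF1 (Nfe2l1) when proteasome activity is short. In astrocytes, as in other cells, inflammatory signals can replace the constitutive catalytic subunits with inducible ones.

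Astrocytes exposed to 50 nm particles at 100 µg/mL had most proteasome genes slightly above the control. Of the 35 genes, 8 rose and none fell (adjusted p under 0.05): Psma6, Psma5, Psmb1, Psmb2, Psmc5, Psmd4, Psmd5 and Psmd8, by 1.12-fold to 1.28-fold. These genes made up 22.9% of the proteasome genes, beside 7.47% of all genes that rose and 3.44% that fell in the same comparison. Above the control lay 33 of the 35, or 94.3%, beside 48.1% of all genes. The only 2 below it were Psmb11, the thymus-specific beta subunit, and Psmc3ip.

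With 500 nm particles at 100 µg/mL, Psma6 alone rose and no proteasome gene fell. That was 2.86% of the proteasome genes, beside 8.82% of all genes that rose and 6.87% that fell. Above the control lay 24 of the 35 genes, or 68.6%, beside 46.9% of all genes. The median log2 fold change of the proteasome genes was 0.12 with 50 nm and 0.03 with 500 nm particles, and that of all genes was -0.0042 and -0.0095. No proteasome gene passed the study's own limits for a differentially expressed gene (adjusted p under 0.05 and 1.5-fold), which 3.79% of all genes passed with 50 nm and 8.19% with 500 nm particles. The tables hold no expression level, so the genes could not be set beside others of like abundance.

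**Figure D1:**
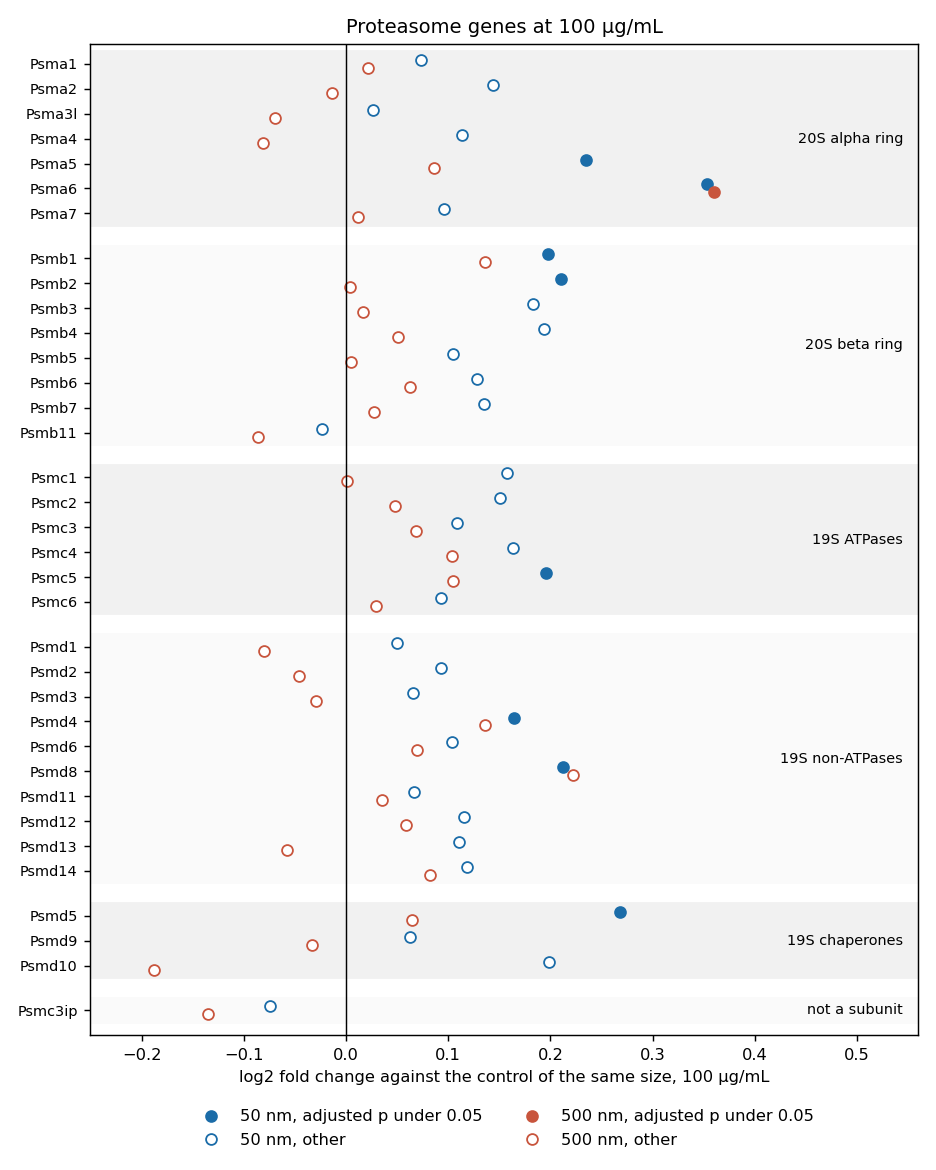
Each row is 1 of the 35 genes, grouped by role, and the horizontal axis is the log2 fold change at 100 µg/mL against the matching control group. Blue points are 50 nm and red points 500 nm particles, filled where the adjusted p is under 0.05; 33 blue points lie right of 0, and 8 blue points and 1 red point are filled.

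**Figure D2:**
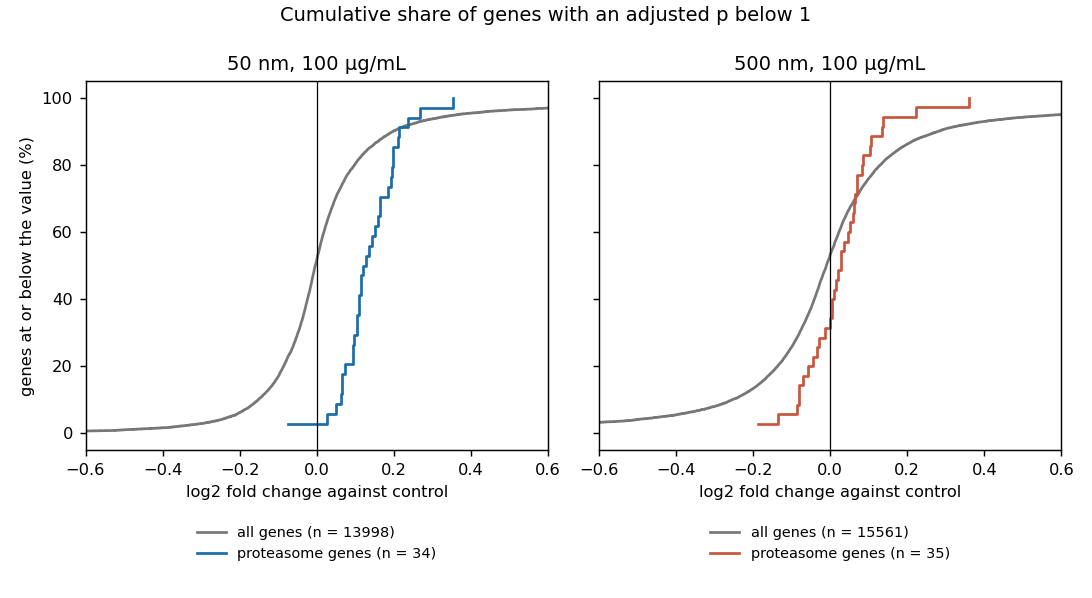
The vertical axis is the share of genes (percent) at or below each log2 fold change on the horizontal axis, for all genes with an adjusted p below 1 (grey) and for the proteasome genes among them (colour); the axis is limited to -0.6 to 0.6. The proteasome curve lies right of 0 for nearly all genes with 50 nm particles, while with 500 nm particles it starts at -0.19; both curves cross the grey one in their upper part.

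In the alpha ring of the 20S core, 2 of the 7 genes rose with 50 nm particles, or 28.6%, beside 7.47% of all genes. Psma6, a subunit of the ring that forms the gate, had the highest fold change of the 35 genes with both sizes: 1.28-fold with 50 nm particles (log2 fold change 0.35, adjusted p 0.000279) and 1.28-fold with 500 nm particles (log2 fold change 0.36, adjusted p 0.000187). It was the one gene of the group that rose with both sizes. Psma5 rose 1.18-fold with 50 nm particles (adjusted p 0.0144), and its value with 500 nm particles was 1.06 (adjusted p 0.63). The other 5 genes (Psma1, Psma2, Psma3l, Psma4 and Psma7) did not pass the test with either size. The lowest of the ring with 50 nm particles was Psma3l at 1.02 (adjusted p 0.851), whose signed fold change with 500 nm particles was -1.05 (adjusted p 0.508); a negative value is minus the inverse ratio. The lowest with 500 nm particles was Psma4 at -1.06 (adjusted p 0.448), which stood at 1.08 with 50 nm particles (adjusted p 0.273). The median log2 fold change of the ring was 0.11 and 0.01.

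In the beta ring, 2 of the 8 genes rose with 50 nm particles, or 25%, beside 7.47% of all genes, and neither was catalytic. Psmb2, a structural subunit of the ring, rose 1.16-fold (adjusted p 0.0361) with 50 nm particles and stood at 1.00 (adjusted p 0.999) with 500 nm particles. Psmb1, another structural subunit, rose 1.15-fold (adjusted p 0.0452) and stood at 1.10 (adjusted p 0.148), the highest of the ring with 500 nm particles. None of the catalytic subunits passed the test. Psmb5, which carries the chymotrypsin-like activity, stood at 1.08-fold (adjusted p 0.435) with 50 nm and 1.00 (adjusted p 0.99) with 500 nm particles. Psmb6, of the caspase-like activity, stood at 1.09 (adjusted p 0.334) and 1.04 (adjusted p 0.782). Psmb7, of the trypsin-like activity, stood at 1.10 (adjusted p 0.247) and 1.02 (adjusted p 0.914). The structural subunits Psmb3 and Psmb4 also did not pass with either size, at 1.14 and 1.14 with 50 nm particles. Psmb11 was lowest in both, at -1.02 and -1.06, and its adjusted p of exactly 1 with 50 nm particles does not say whether it was tested there. The median log2 fold change of the ring was 0.16 and 0.02.

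The ATPases of the 19S cap form the ring that unfolds substrates. All 6 genes (Psmc1 to Psmc6) lay above the control with both sizes, beside 48.1% and 46.9% of all genes. With 50 nm particles 1 rose, or 16.7%, beside 7.47% of all genes, and none rose with 500 nm particles. Psmc5 rose 1.145-fold (adjusted p 0.0327) with 50 nm particles and stood at 1.08 (adjusted p 0.557) with 500 nm particles. It was the highest ATPase with both sizes. Psmc2 stood just outside the threshold at 1.11-fold (adjusted p 0.0708) with 50 nm particles and at 1.03 (adjusted p 0.768) with 500 nm particles. The lowest was Psmc6 at 1.07 (adjusted p 0.34) with 50 nm particles, where its 500 nm value was 1.02 (adjusted p 0.875). With 500 nm particles the lowest was Psmc1 at 1.00 (adjusted p 0.998), which stood at 1.12 (adjusted p 0.174) with 50 nm particles.

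Of the 10 non-ATPase subunits of the cap, 2 rose with 50 nm particles, or 20%, beside 7.47% of all genes. None rose with 500 nm particles, beside 8.82%. Psmd8, a subunit of the lid, rose 1.16-fold (adjusted p 0.00225) with 50 nm particles. It stood at 1.17-fold with 500 nm particles, just outside the threshold (adjusted p 0.0612). Psmd4, which binds ubiquitin chains, rose 1.12-fold (adjusted p 0.0498) with 50 nm particles, close to the threshold, and stood at 1.10 (adjusted p 0.182) with 500 nm particles. Psmd14, the deubiquitinase of the lid, did not pass the test at 1.09 (adjusted p 0.135) and 1.06 (adjusted p 0.623). Psmd1, a scaffold of the base, was the lowest with both sizes, at 1.035 (adjusted p 0.661) and -1.06 (adjusted p 0.547). Psmd2, Psmd3, Psmd6, Psmd11, Psmd12 and Psmd13 did not pass with either size. All 10 lay above the control with 50 nm particles and 6 with 500 nm particles, beside 48.1% and 46.9% of all genes.

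The 3 other genes named Psmd code for chaperones that help to assemble the cap. Psmd5 rose by 20.4% (adjusted p 0.011) with 50 nm particles, the next largest fold change after Psma6 of the 35 genes, and stood at 1.05 (adjusted p 0.778) with 500 nm particles. Psmd10, also known as gankyrin, stood at 1.15 (adjusted p 0.195) with 50 nm particles and had the lowest value of the 35 genes with 500 nm particles, -1.14 (adjusted p 0.321). Psmd9 stood at 1.04 (adjusted p 0.679) and -1.02 (adjusted p 0.876). Psmc3ip, the gene matched by name alone, stood at -1.05 (adjusted p 0.625) and -1.10 (adjusted p 0.544).

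The rows of some of these genes may take reads from elsewhere, or may lose shared reads because those of low alignment quality were disregarded. In the RefSeq gene table (GRCr8), 15 of the 35 genes have at least 1 pseudogene or copy that carries their name, 39 copies in all, and among the 8 genes that rose with 50 nm particles these are Psma6 with 5, Psmd8 with 2 and Psma5 with 1. Their values are therefore uncertain where the copies share reads with them. Without such genes the calls were 5 with 50 nm and 0 with 500 nm particles, beside 7.47% and 8.82% of all genes that rose. A lower count among fewer genes is not by itself a lower share. In the same gene table, 11 of the 35 genes overlap another annotated gene, and 5 of the 8 that rose do. Whether the counting used strand is not stated in these sources, so reads of overlapping genes cannot be told apart. Tbp, which overlaps Psmb1 and codes for the TATA-binding protein, stood at 1.04 (adjusted p 0.732) with 50 nm particles and -1.05 (adjusted p 0.641) with 500 nm particles.

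At lower doses no proteasome gene passed the test. With 50 nm particles, none of the 35 had an adjusted p under 0.05 at 10 µg/mL, where 0.0169% of all genes did, or at 1 µg/mL, where 0% did. With 500 nm particles the shares of all genes were 0.0111% at 10 µg/mL and 0% at 1 µg/mL. The fold changes at these doses were shrunk almost to no change: the largest absolute log2 fold change of a proteasome gene was 0.000138 at 10 µg/mL and 6.76e-05 at 1 µg/mL with 50 nm particles, and 0.000176 and 0.000136 with 500 nm particles. Above the control lay 17 of the 35 at 10 µg/mL and 28 at 1 µg/mL with 50 nm particles, beside 47.8% and 48.2% of all genes. For the 500 nm particles these were 25 and 12 of the 35, beside 48.2% and 48.0%. The doses of a size share their 4 control libraries. How large a change at the lower doses would have been missed cannot be read from shrunken values without standard errors.

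The fold change was larger with 50 nm than with 500 nm particles for 33 of the 35 genes, by a median log2 difference of 0.094. The exceptions were Psma6 and Psmd8, which differed between the sizes by less than 0.01 on the log2 scale. They were the 2 highest genes with 500 nm particles. The same count was not made over all genes, so a larger change with 50 nm particles cannot be called particular to the proteasome genes. The fold changes are shrunken values, lowered more where a gene is imprecise, and standard errors are unknown for both sizes. The part of precision in the difference between sizes was not tested. All 8 genes that rose with 50 nm particles lay above the control with 500 nm particles, and 24 of the 35 lay above it with both sizes. Across the 35 genes the log2 fold changes of the 2 sizes correlated (Pearson r 0.671, Spearman rho 0.599), a description across genes, which are not independent replicates. Neither this correlation nor the overlap counts before it were computed over all genes. Agreement between the sizes therefore cannot be called particular to the group. Each size had its own control libraries. Without values per library the difference between sizes could not be tested for any gene, and a gene that passed with 50 nm particles alone is not thereby shown to differ between them. With unadjusted p-values, recovered from the adjusted ones, 17 of the 35 genes were higher at p under 0.05 with 50 nm particles and 4 with 500 nm particles, beside 13.5% and 13.8% of all genes. None was lower, beside 9.46% and 12.3% of all genes.

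Promoters of 4 of these genes are shown because NRF1, which raises proteasome genes, and the related NRF2 bind an antioxidant response element, here searched as TGACNNNGC on both strands in RefSeq windows of 300 bases (250 before the annotated gene start and 50 from it, GRCr8). Capitals mark the match and all sequences run 5′ to 3′ on the strand of the gene. Psma6, at chr6:78514097-78514396 (plus strand), rose with both sizes and holds no match. Psmb2, at chr5:144254808-144255107 (plus strand), is the only one of the 8 genes that rose with 50 nm particles whose window holds a match. That 1 of 8 is near the share of all windows that hold one, 12.1%. The catalytic Psmb5, at chr15:32047330-32047629 (minus strand), and Psmb6, at chr10:55737638-55737937 (plus strand), hold a match and did not pass the test.
Psma6: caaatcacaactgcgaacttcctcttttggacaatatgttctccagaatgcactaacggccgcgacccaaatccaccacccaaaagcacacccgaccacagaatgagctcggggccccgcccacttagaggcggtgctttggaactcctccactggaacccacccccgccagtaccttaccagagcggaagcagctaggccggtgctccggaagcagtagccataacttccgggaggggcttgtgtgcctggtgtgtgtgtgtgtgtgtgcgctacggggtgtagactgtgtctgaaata
Psmb2: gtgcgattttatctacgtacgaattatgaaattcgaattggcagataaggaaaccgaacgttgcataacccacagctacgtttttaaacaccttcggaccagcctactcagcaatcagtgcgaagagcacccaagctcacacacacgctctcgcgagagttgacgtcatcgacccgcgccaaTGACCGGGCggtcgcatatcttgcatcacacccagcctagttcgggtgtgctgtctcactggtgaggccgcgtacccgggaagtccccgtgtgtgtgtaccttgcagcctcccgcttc
Psmb5: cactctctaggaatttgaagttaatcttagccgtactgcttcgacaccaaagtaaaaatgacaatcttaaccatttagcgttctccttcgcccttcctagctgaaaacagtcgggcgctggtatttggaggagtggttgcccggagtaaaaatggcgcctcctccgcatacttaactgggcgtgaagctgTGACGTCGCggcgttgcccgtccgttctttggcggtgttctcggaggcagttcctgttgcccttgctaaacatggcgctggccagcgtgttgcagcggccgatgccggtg
Psmb6: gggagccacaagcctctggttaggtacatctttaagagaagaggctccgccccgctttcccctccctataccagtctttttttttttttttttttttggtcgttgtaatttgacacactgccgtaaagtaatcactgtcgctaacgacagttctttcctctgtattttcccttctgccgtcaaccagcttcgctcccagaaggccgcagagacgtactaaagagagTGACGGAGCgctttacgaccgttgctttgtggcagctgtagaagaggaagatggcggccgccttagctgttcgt

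Of the 35 genes, 30 had an entry in the promoter table (none for Psma7, Psmb11, Psmd6, Psmd12 and Psmd14), and 7 of these windows, or 23.3%, held the letters: those of Psma3l, Psmb2, Psmb5, Psmb6, Psmd1, Psmd3 and Psmd9. Of all 33469 windows, 12.1% held them. Counted from the gene start at 0, the match lay at bases -68 to -60 in Psmb2, -60 to -52 in Psmb5 and -24 to -16 in Psmb6. Psmd1 and Psmd9 held 2 matches each. A match of letters is a description and not a measured site, and no match says only that these letters are not in this window.

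**Figure D3:**
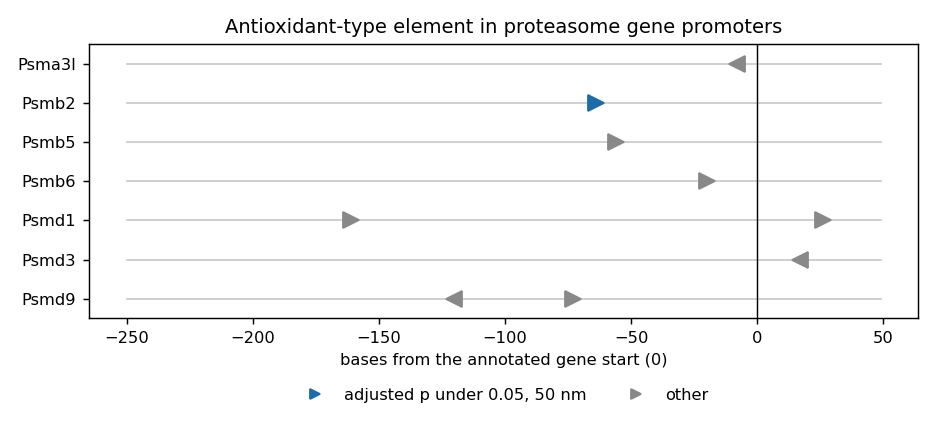
Each line is the 300-base promoter window of 1 of the 7 genes whose window holds TGACNNNGC, and the horizontal axis is the distance in bases from the annotated gene start. Triangles mark matches and point right on the strand of the gene and left on the other strand; the blue one, in Psmb2, belongs to the only gene of the 7 that rose with 50 nm particles.

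The genes that work with the proteasome were read from lists of its pathway. Neither inducible catalytic subunit with a row passed the test: Psmb8 stood at 1.05 (adjusted p 0.32) with 50 nm and 1.08 (adjusted p 0.43) with 500 nm particles, and Psmb9 at 1.04 (adjusted p 0.624) and 1.01 (adjusted p 0.966). Psmb10 was not analysed here. Of the 5 activators and inhibitor (Psme1 to Psme4 and Psmf1), 1 rose with 50 nm particles, or 20%, beside 7.47% of all genes. None rose with 500 nm particles, beside 8.82%. Psmf1, known as a proteasome inhibitor in vitro, rose 1.23-fold (adjusted p 0.00791) with 50 nm particles. It stood at 1.12 (adjusted p 0.387) with 500 nm particles. None of the 5 assembly chaperones with a row passed with either size. Among them Pomp, which matures the core, had log2 fold changes of -0.0031 and -0.09, with an adjusted p of exactly 1 in both.

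Of 10 subunits outside the name rule and partners that bind the 26S proteasome, 2 rose with 50 nm particles (20%, beside 7.47% of all genes) and 3 with 500 nm particles (30%, beside 8.82%), and none fell. Zfand5, a zinc finger protein that binds the proteasome and stimulates it, rose 1.48-fold (adjusted p 0.000208) and 1.87-fold (adjusted p 1.87e-05). Zfand2a, a related protein induced by arsenite, rose 1.22-fold (adjusted p 0.0262) and 1.29-fold (adjusted p 0.0172). Usp14, the deubiquitinase that docks on the cap, stood at 1.10 (adjusted p 0.114) with 50 nm particles and rose 1.18-fold (adjusted p 0.0203) with 500 nm particles.

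Nfe2l1, the gene of NRF1, did not pass the test at 1.05 (adjusted p 0.566) and 1.11 (adjusted p 0.386), and this factor is known to be regulated largely at the protein level. Of the 10 genes for the factors and their processing, 0 passed with 50 nm particles, beside 7.47% of all genes that rose. Of the same 10, 1 passed with 500 nm particles, or 10%, near the 8.82% of all genes that rose. That one was Nploc4, which codes for a cofactor of the unfoldase Vcp, at 1.03 (adjusted p 0.705) and 1.11-fold (adjusted p 0.0322). Of 12 rows of ubiquitin genes and shuttles, in which Rps27a has 2 rows, 1 rose with 50 nm particles, or 8.33%, near the 7.47% of all genes, and 3 with 500 nm particles, or 25%, beside 8.82%. Ubb, a polyubiquitin gene, stood at 1.10 (adjusted p 0.165) with 50 nm particles and rose 1.125-fold (adjusted p 0.00171) with 500 nm particles. Ubqln4, a shuttle that carries ubiquitinated proteins to the proteasome, stood at 1.04 (adjusted p 0.555) and rose 1.16-fold (adjusted p 0.0106). Ubd, a ubiquitin-like modifier induced by cytokines, rose with both sizes (adjusted p 0.00089 and 1.15e-08), with deposited fold changes of 597 and 3910.

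A small shift above the control was not seen in the proteasome genes alone. Of other large complexes, chosen after the values of the proteasome genes were known and given side by side without a test, the 9 genes of the COP9 signalosome, a relative of the proteasome lid, had a median log2 fold change of 0.11 with 50 nm and 0.07 with 500 nm particles, and 2 (22.2%) and 1 (11.1%) of them rose. The 11 genes of translation initiation factor eIF3 had medians of 0.14 and 0.11, and 4 (36.4%) of them rose with 50 nm and 0 with 500 nm particles. The 9 genes of the chaperonin CCT had medians of 0.11 and 0.11, and 1 (11.1%) rose with each size. The 86 rows of cytosolic ribosomal proteins had medians of 0.19 and 0.11, and 18 (20.9%) of them rose with 50 nm and 3 (3.49%) with 500 nm particles, with 81 and 78 rows above the control. The shares of all genes that rose were 7.47% and 8.82%. The proteasome median of 0.12 with 50 nm particles was thus within the range of these 4 complexes, 0.11 to 0.19, and that of 0.03 with 500 nm particles was below their range, 0.07 to 0.11.

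**Figure D4:**
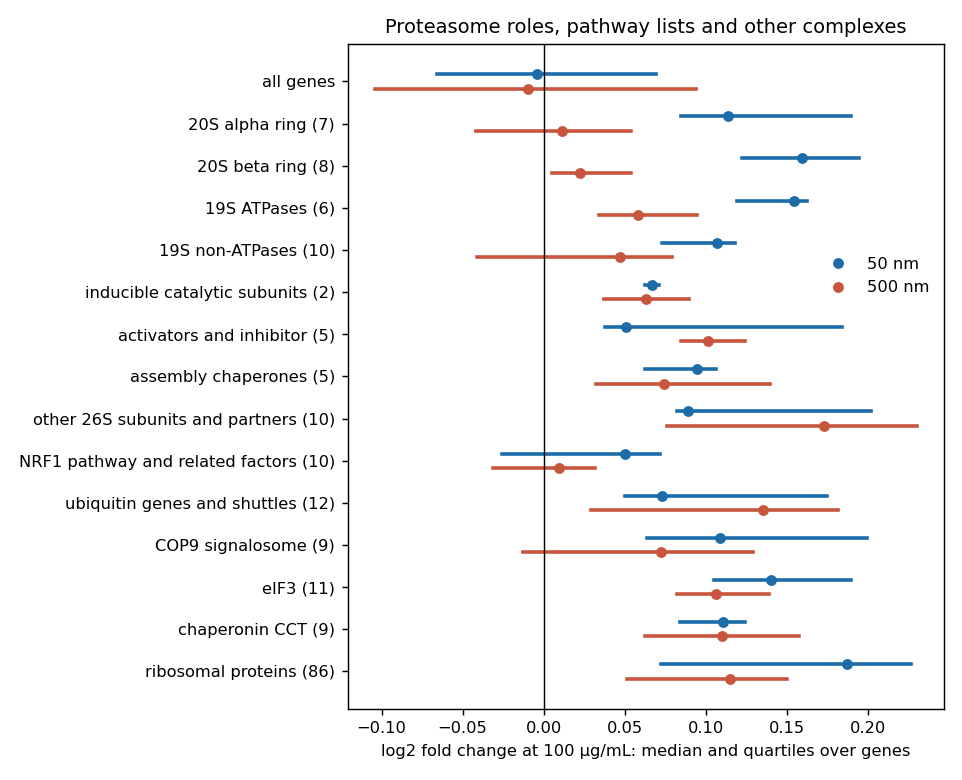
Each row is a group of genes with the number of its rows in the 500 nm table, and the horizontal axis is the log2 fold change at 100 µg/mL; dots are medians and bars run from the lower to the upper quartile over genes, blue for 50 nm and red for 500 nm particles. With 50 nm particles the medians of the 4 proteasome roles (0.11 to 0.16) sit among those of the 4 other complexes (0.11 to 0.19), and with 500 nm particles they lie at 0.01 to 0.06.

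Markers of cell type moved in the same comparisons, and their part in the proteasome values was not tested. All 11 astrocyte markers had a row. With 50 nm particles Gfap, the astrocyte filament protein, rose 1.77-fold (adjusted p 0.00803) and Fabp7 1.48-fold (adjusted p 0.00332). Aqp4 fell (log2 fold change -0.27, adjusted p 0.0378). The 2 markers that rose were 18.2% of the 11, beside 7.47% of all genes, and Aqp4 was 1 of the 11, beside 3.44% that fell. The paper states that it saw no increase of Gfap, although the 50 nm value passes its limits of 1.5-fold and adjusted p under 0.05. With 500 nm particles Aqp4, Gja1, Glul and Aldoc fell, with fold changes of -2.62, -2.32, -1.80 and -1.51. These were 4 of the 11 markers, beside 6.87% of all genes that fell, and no marker rose. Gfap at 1.03 (adjusted p 0.841), Fabp7 at 1.14 (adjusted p 0.38) and the other markers did not pass. Above the control lay 4 of the 11, or 36.4%, beside 46.9% of all genes, the highest being Aldh1l1 at 1.39 (adjusted p 0.061). None of the 6 neural stem cell, 5 neuron or 4 microglia markers with a row passed with either size. The microglia markers Cx3cr1, Ptprc and Itgam had no row, and the 4 with a row had an adjusted p of exactly 1 with 50 nm particles. Of 9 oligodendrocyte lineage markers Pdgfra alone passed, and fell with 50 nm particles (fold change -1.30). Of 3 fibroblast and vascular markers with a row, Pdgfrb alone passed, and fell with both sizes (fold changes -1.54 and -2.39). Pdgfra and Pdgfrb stood beside 3.44% of all genes that fell with 50 nm and 6.87% with 500 nm particles. In bulk RNA, fewer cells of a type and less RNA per cell cannot be told apart.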

How the data were processed

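RNA-seq libraries (TruSeq Stranded mRNA) of astrocytes, 32 in 8 groups of 4, were analysed. The authors filtered reads by length and quality (bbduk), mapped them to the rat genome of Ensembl (STAR), disregarded those of low alignment quality and counted the rest per gene (featureCounts). In DESeq2 the authors tested every dose against its own size's controls. The submitters' processing notes give STAR 2.7.1a, featureCounts 2.0.0, DESeq2 1.26.0 and Rnor_6.0. The tables used were deposited as signed linear fold changes, shrunk by the authors with apeglm, and as adjusted p-values. The adjustment was Benjamini-Hochberg, over a set of genes that is not stated. The tables hold the authors' comparisons, and no counts per library were used, so depth, replicate spread, standard errors and intervals are unknown. The test planned for counts was therefore not run. Shrinkage makes the fold changes of imprecise genes smaller.

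Fold changes were converted to log2 with Python 3.11.15 and pandas 2.3.3. A gene was said to rise or fall at an adjusted p under 0.05. At 100 µg/mL, 3827 genes with 50 nm and 2476 with 500 nm particles had an adjusted p of exactly 1. The sources used here do not say whether they were tested, and they were left out of the shares of all genes but not of the 35. The adjustment at 100 µg/mL was undone over the genes with an adjusted p below 1, a step tested on simulated data. The unadjusted p-values so obtained are upper estimates. Every matched gene is named, with values for those past the threshold, the catalytic subunits, the highest and lowest of each role, and a few singled out after their values were seen (Psmc2, Psmd14, Psmb3 and Psmb4). Of the pathway lists, genes past the threshold and Psmb8, Psmb9, Psmb10, Nfe2l1 and Pomp are named. Genes and lists were chosen with earlier results of these data known. A gene of the ubiquitin list is not reported here and was left out of its counts.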

Additional observations from a re-analysis of the deposited data

How the results depend on the processing

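With 50 nm particles at 100 µg/mL the count of 8 proteasome genes became 2 at an adjusted p under 0.01, 17 at an unadjusted p under 0.05, and 2 where a fold change of at least 1.2 was asked as well. With 500 nm particles the count of 1 became 2 at an adjusted p under 0.1 and 4 at an unadjusted p under 0.05. Leaving out the 15 genes with a copy by name gave 5 and 0. Leaving out the 11 genes that overlap another gene gave 3 with 50 nm particles. These counts are among fewer genes and stand beside 7.47% of all genes that rose with 50 nm and 8.82% with 500 nm particles. Both alternatives were chosen after seeing the data, as was an adjusted p under 0.1 at the lower doses. In 22 other pairs of a result and an alternative (centring on all genes, the mean in place of the median, 26S subunits only and others) values moved little and no direction turned. These include the limits of 1.3-fold and 2-fold and the lower doses, where counts of 0 could not have moved: no proteasome gene reached 1.3-fold, and the adjusted p-values at the lower doses were close to 1. No paired analysis was possible because no values per library were used. For the same reason leaving out each replicate, another normalization and a filter on low counts were not run, and how far a single library decides a value is unknown.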
